A study of Mus musculus with 22 samples.

Results

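The Frizzled receptor family (Fzd1 to Fzd10) was followed through mammary tumour development at 1230 CpG positions, of the 1140639 positions covered in all 22 samples of the series. A position is a CpG cytosine on 1 strand, and the family's positions were those in the body of a Frizzled gene or within 2 kb of any of its curated RefSeq transcription start sites (TSSs) in mm10. They were split into a core (585 positions within 500 bp of a TSS), a 3′ zone (587 positions, the rest of the gene body and of the 2 kb after a TSS) and an upstream zone (58 positions). DNA methylation was measured by enhanced reduced representation bisulfite sequencing (ERRBS), which reads CpGs in fragments cut at a CpG-containing restriction site. The PyMT mice were F1 females that carried 1 copy of the MMTV-PyMT transgene inherited from MMTV-PyVT males on the FVB/N background, in which the mouse mammary tumour virus promoter drives the polyomavirus middle T oncogene in mammary epithelium, and the controls were FVB females without the transgene. PyMT mice numbered 2 at week 6 (hyperplasia), 3 at week 8 (adenoma/MIN, mammary intraepithelial neoplasia), 3 at week 10 (early carcinoma) and 2 at week 12 (late carcinoma, with lung metastasis), and there were 3 FVB mice at each of these ages. No treatment was named for any group, and all mice shared the FVB background.

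Frizzled proteins are membrane-spanning receptors that bind Wnt ligands through a cysteine-rich outer domain. With the co-receptors Lrp5 and Lrp6 they recruit Dishevelled and stabilise β-catenin, and with Ror, Ryk or Ptk7 they signal to cell shape and planar polarity. Wnt signalling maintains mammary stem cells, and its activation in the mouse mammary gland gives tumours. Methylation of a CpG-rich TSS is generally tied to silencing, whereas methylation inside a gene body is common in active genes.

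In PyMT mice the starts of all 10 Frizzled genes stayed almost unmethylated, though the Fzd10 core reached a mean of 3.17% in PyMT week 12 replicate 3. More than 1000 bp after the TSS, coding positions of Fzd1, Fzd2, Fzd4, Fzd5 and Fzd8 gained methylation and those of Fzd7 lost it, though not all did. The coding stretch that lost methylation in Fzd7 lies where Fzd2 and Fzd1 gained it, as the lined-up sequences show. The stretch was chosen as the 200 coding bases of Fzd7 with the most CpGs lower in PyMT at late carcinoma. Each line gives 200 coding bases, 5′ to 3′ on the strand of the gene, read from mm10. Capitals mark the CpGs that were differentially methylated at late carcinoma. Measured CpGs numbered 14 of 14 in Fzd7, 10 of 15 in Fzd2 and 3 of 10 in Fzd1, and all of these were called. Lower-case CpGs of Fzd2 and Fzd1 were not measured, so that their change is not known.
Fzd7, chr1:59484288-59484487, plus strand: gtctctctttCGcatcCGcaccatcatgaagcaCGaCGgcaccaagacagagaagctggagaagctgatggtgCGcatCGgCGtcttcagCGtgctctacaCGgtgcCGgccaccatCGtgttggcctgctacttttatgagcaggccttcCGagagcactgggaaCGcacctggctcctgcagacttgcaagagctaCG
Fzd2, chr11:102606054-102606253, plus strand: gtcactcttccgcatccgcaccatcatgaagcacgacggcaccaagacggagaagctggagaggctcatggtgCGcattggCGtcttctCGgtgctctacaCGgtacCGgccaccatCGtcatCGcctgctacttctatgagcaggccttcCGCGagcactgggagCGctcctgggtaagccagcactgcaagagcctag
Fzd1, chr5:4755864-4756063, minus strand: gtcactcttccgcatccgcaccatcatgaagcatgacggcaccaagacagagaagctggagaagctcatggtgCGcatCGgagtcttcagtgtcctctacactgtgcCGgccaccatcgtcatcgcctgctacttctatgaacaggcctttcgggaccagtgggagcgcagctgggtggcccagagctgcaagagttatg
Fzd5 and Fzd4 are shown by the 200 coding bases that hold the most CpGs higher in PyMT at late carcinoma, again in capitals.
Fzd5, chr1:64735934-64736133, minus strand: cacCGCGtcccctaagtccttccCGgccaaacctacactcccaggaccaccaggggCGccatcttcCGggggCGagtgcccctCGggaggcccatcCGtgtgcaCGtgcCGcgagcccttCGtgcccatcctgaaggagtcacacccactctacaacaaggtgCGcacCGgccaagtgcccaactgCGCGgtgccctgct
Fzd4, chr7:89407565-89407764, plus strand: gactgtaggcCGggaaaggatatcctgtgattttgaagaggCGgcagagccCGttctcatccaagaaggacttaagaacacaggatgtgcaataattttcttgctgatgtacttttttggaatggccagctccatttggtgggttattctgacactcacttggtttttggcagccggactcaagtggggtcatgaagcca
The Fzd5 stretch had a GC content of 67.5% and 16 CpGs, of which 15 were measured and all 15 called, whereas the Fzd4 stretch had a GC content of 47.5% and only 4 CpGs, of which 3 were measured and called.

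A sample held 1314077 to 1435757 positions at a mean coverage of 60.2 to 79.2 reads, and the mean coverage of the Frizzled zones ran from 31.4 reads (Fzd2 core) to 109 reads (Fzd9 core). Between samples of 1 group the reads differed by more than sampling noise in every pair (chi-square per position, 1.85 to 3.51), so that no library was counted as a repeat of another. FVB week 8 replicate 2 stood farthest from its group (3.31 and 3.51 against its 2 group mates), and each zone result was also fitted without it. Tumours and glands were taken whole, and a shift in the share of a cell type cannot be told apart from a change of methylation within cells. Marker lists of cell types were read through the methylation of their core zones. The 5 luminal epithelial cores measured (Cdh1, Elf5, Esr1, Krt18 and Krt19) averaged 2.01% to 5.21% in PyMT samples and 7.67% to 13.6% in FVB samples, without overlap, and 4 of the 5 were lower in PyMT in the fit. Krt5, the basal core measured, lay at 52.4% to 70.5% in PyMT and 53.4% to 79.3% in FVB and was lower in PyMT in the fit (-7.17 points, limma adjusted p = 0.00241). The adipocyte cores (Lep, Lipe and Pparg) averaged 13.5% to 21.2% and 18.6% to 24.0%, with 2 of 3 higher and 1 lower. Kdr of endothelium lay at 0.0769% to 1.05% in PyMT and 0.120% to 0.893% in FVB, and the fibroblast cores (Col1a2 and Pdgfra) averaged 0.275% to 2.48% and 0.263% to 0.792%, with Col1a2 higher in PyMT (1.53 points, limma adjusted p = 5.13e-06) and Pdgfra not called. The part of these cell types in the Frizzled differences was not tested.

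The number of differentially methylated cytosines (DMCs) in the family rose from stage to stage, and most were hyper-DMCs. A position was called a DMC when the pooled reads of PyMT and FVB mice of 1 age differed by 10 points or more in methylation, with q under 0.01 in a likelihood-ratio test. Because reads are pooled over mice, these q-values do not carry the spread between mice. At hyperplasia, 95 of the 1230 positions (7.72%) were hyper-DMCs, against 2.62% of all positions, and 26 (2.11%) were hypo-DMCs, against 6.01%. At adenoma/MIN, 114 (9.27%) were hyper-DMCs, against 3.20% of all positions, and 18 (1.46%) hypo-DMCs, against 7.10%. Early carcinoma had 138 hyper-DMCs (11.2%), against 4.39%, and 25 hypo-DMCs (2.03%), against 8.42%. Late carcinoma had 154 hyper-DMCs (12.5%), against 4.44%, and 30 hypo-DMCs (2.44%), against 8.53%. The family thus held a larger share of hyper-DMCs and a smaller share of hypo-DMCs than all positions at each stage, the opposite of the balance over all positions. The hyperplasia share rested in part on PyMT week 6 replicate 1, without which it was 3.74%, and a test corrected for the spread between mice gave 2.85%, where it called 0.883% of all positions. The share of all positions without PyMT week 6 replicate 1 was not recorded. In all, 82 positions (6.67%) were hyper-DMCs at all 4 stages, against 1.05% of all positions, and 8 (0.650%) were hypo-DMCs at all 4, against 3.27%. At 55 positions (4.47%) every one of the 10 PyMT samples lay above every one of the 12 FVB samples, against 0.654% of all positions, and at 6 (0.488%) every PyMT sample lay below, against 2.08%.

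These DMCs were spread very unevenly over the genes. At late carcinoma none of the 585 core positions was a hyper-DMC or a hypo-DMC, where 1.69% and 0.546% of all core positions were. Upstream, 1 of 58 positions was a hyper-DMC and none a hypo-DMC, where 3.11% and 3.47% of all upstream positions were. In the 3′ zones 153 of 587 positions (26.1%) were hyper-DMCs, against 7.21% of all 3′ positions, and 30 (5.11%) were hypo-DMCs, against 12.1%. By gene, the late hyper-DMCs lay in Fzd2 (51 of its 59 3′ positions), Fzd5 (49 of 116), Fzd8 (28 of 107), Fzd1 (18 of 91), Fzd4 (3 of 3), Fzd10 (3, with 2 in its 3′ zone) and Fzd6 (2). The late hypo-DMCs lay in Fzd7 (18 of 91), Fzd9 (4), Fzd6 (4), Fzd3 (3) and Fzd10 (1). Fzd1, Fzd2, Fzd4, Fzd5 and Fzd8 had no hypo-DMC at any stage, and Fzd3, Fzd7 and Fzd9 had no hyper-DMC at any stage. By annotation, 147 of the 154 hyper-DMCs were in coding sequence, 6 in a 3′ UTR and 1 outside a transcript. Coding sequence held 536 of the 1230 positions, and shares by annotation were not computed for all genes.

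Few called positions lay near a start. With a border at 1000 bp after the TSS, chosen after the values were seen, the 874 positions upstream or within the border averaged 0.394% methylation in FVB and held 1 hyper-DMC and 3 hypo-DMCs at late carcinoma. The 356 positions beyond it averaged 25.6% and held 153 and 27, while 176 of them were not called. The same split was not made for other genes. In Fzd2 the nearest hyper-DMC lay 1383 bp after the TSS, in Fzd5 1524 bp, in Fzd1 1697 bp, in Fzd8 1781 bp and in Fzd4 3209 bp, while the nearest hypo-DMC of Fzd7 lay at 2151 bp. All of these are in coding sequence, from codon 361 of Fzd2, 125 of Fzd5, 354 of Fzd1, 573 of Fzd8, 277 of Fzd4 and 447 of Fzd7 on. ERRBS reads only part of each gene, and in Fzd2 no position was covered between 609 bp and 1383 bp, so that its border cannot be placed more closely.

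**Figure D1:**
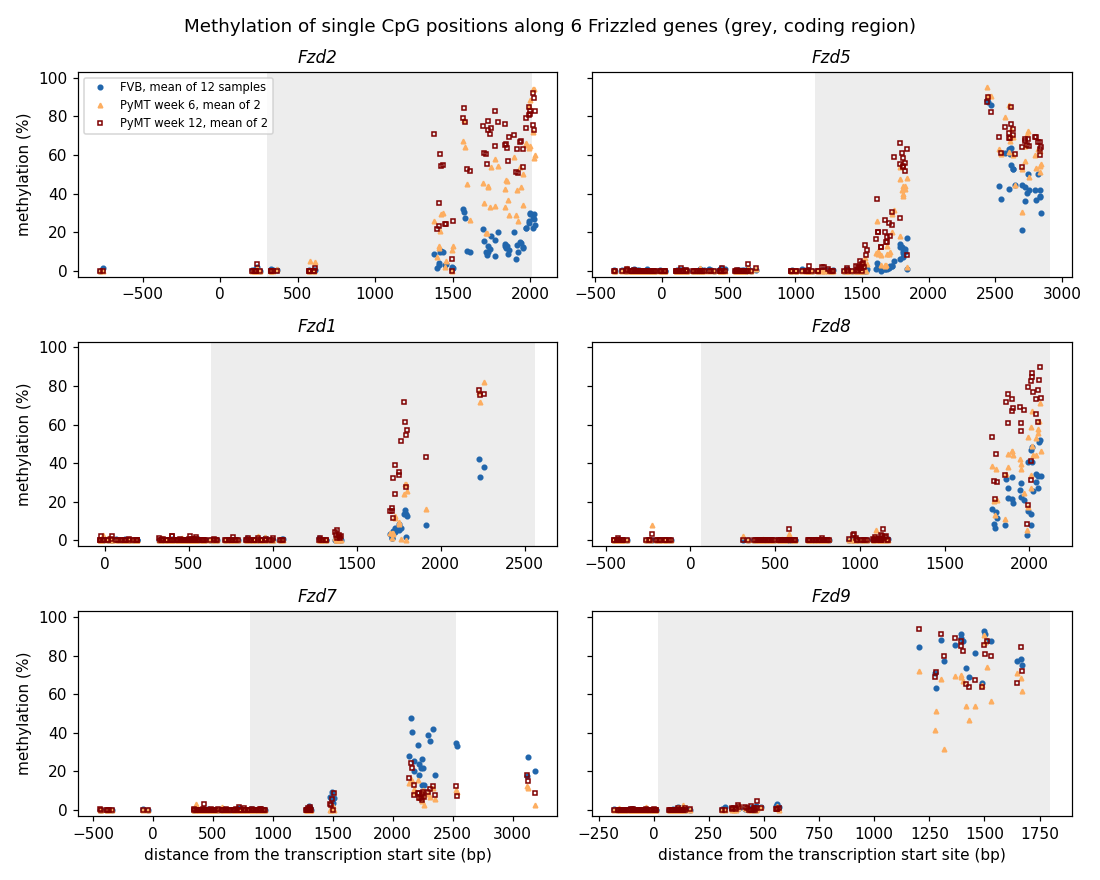
Methylation (%) of single CpG positions against distance from the TSS (bp) in Fzd2, Fzd5, Fzd1, Fzd8, Fzd7 and Fzd9, as the mean of 12 FVB samples, of 2 PyMT samples at week 6 and of 2 at week 12, with the coding region in grey. Positions near the start lie at the bottom in all 3 groups. Among coding positions beyond 1000 bp, PyMT lies above FVB at many of Fzd2, Fzd5, Fzd1 and Fzd8, and below it at many of Fzd7.

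The 3′ positions were also compared with 3′ positions of all genes that started from a like level in FVB mice of weeks 6, 8 and 10, which are not part of the late carcinoma comparison. Frizzled 3′ positions were CpG-rich, with a median of 17 CpGs within 100 bp on each side against 9 for all 3′ positions, and low in FVB, with a median of 0.839% against 36.4%. Among positions that started at 5% to 50%, 111 of 159 Frizzled positions (69.8%) were late hyper-DMCs against 21.1% of all, and 22 (13.8%) were hypo-DMCs against 20.4%. Among positions that started under 5%, 31 of 360 (8.61%) were hyper-DMCs against 1.84% of all. With both a start of 5% to 50% and at least 10 CpGs nearby, 104 of 131 (79.4%) were hyper-DMCs against 24.0% of all. These shares are descriptions, since neighbouring positions share fragments and reads.

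Zone means gave the same picture with the spread between mice. The mean methylation of each zone with at least 3 positions was fitted with limma over 33023 zones of all genes, and 22 Frizzled zones entered it. Averaged over the 4 weeks, 6 Frizzled zones were higher in PyMT (16.3% of all zones were) and 3 were lower (23.3% of all zones). Of the 10 core zones none was higher or lower, against 14.8% and 7.90% of all core zones. Core differences ran from -0.143 to 0.412 points, with limma adjusted p-values from 0.0692 to 0.659. Without FVB week 6 replicate 2 or FVB week 10 replicate 1 the Fzd9 core passed as lower (-0.161 and -0.153 points), and without PyMT week 12 replicate 1 the Fzd10 core passed as higher (0.712 points). Of the 10 3′ zones 5 were higher (Fzd1, Fzd2, Fzd4, Fzd5 and Fzd8), against 17.9% of all 3′ zones, and 3 were lower (Fzd3, Fzd7 and Fzd9), against 39.7%. The median difference of the 10 Frizzled 3′ zones was 2.79 points, and that of all 14301 3′ zones was -0.751 points. The remaining 2 3′ zones, of Fzd6 (-0.841 points, SE 0.651) and Fzd10 (0.974 points, SE 0.444), did not pass, with adjusted p-values of 0.367 and 0.1 from limma.

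**Figure D2:**
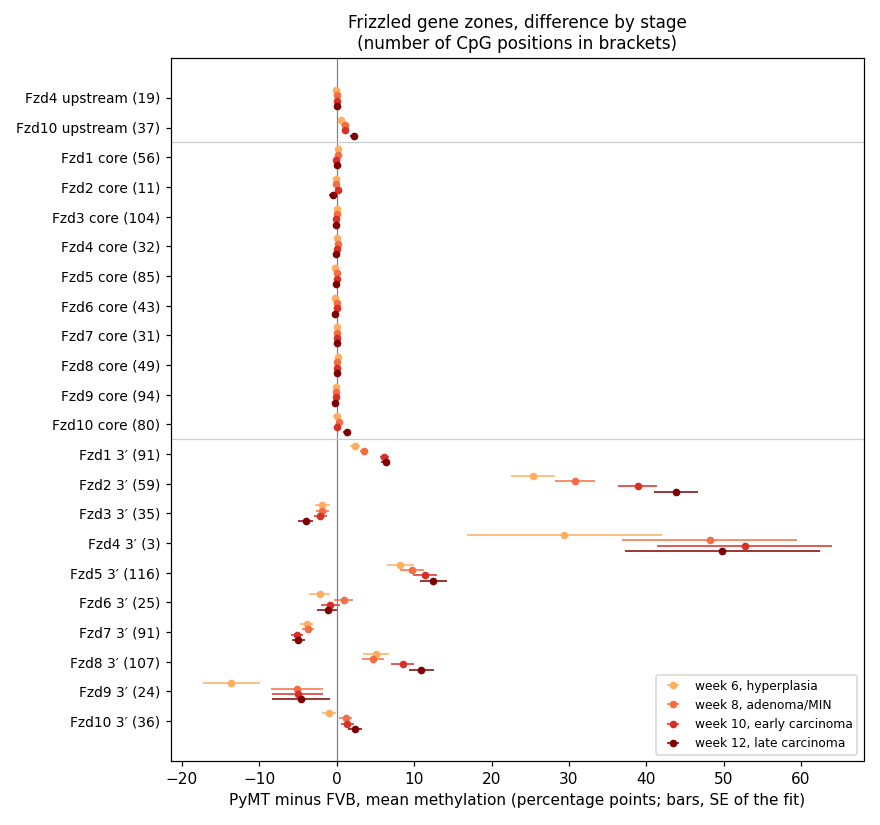
PyMT minus FVB difference of mean methylation (percentage points, with the SE of the fit) in the 22 Frizzled zones at each stage, with the number of positions in brackets. All core zones lie near 0, Fzd2 3′ and Fzd4 3′ lie farthest to the right, and Fzd7 3′ and Fzd9 3′ lie to the left at every stage.

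Fzd1, Fzd2 and Fzd7 form a closely related group of Frizzled receptors. Fzd2 (chr11:102604431-102608058, plus strand), a receptor known for Wnt5a signalling to cell movement, gained most among Frizzled zones with more than 3 positions. Its 3′ zone (59 positions) averaged 10.8% to 16.0% in the 12 FVB samples (median 13.1%). The PyMT samples had 44.3% and 33.0% at week 6, 44.8%, 45.6% and 44.9% at week 8, 51.3%, 54.6% and 49.5% at week 10, and 60.4% and 51.3% at week 12. Every PyMT sample lay above every FVB sample, and the 2 week 6 samples were the lowest of the PyMT samples. The difference was 34.7 points over the 4 weeks (SE 1.35, limma adjusted p = 1.99e-11), from 25.3 points at week 6 to 43.9 points at week 12. Of its positions 42 were hyper-DMCs at all 4 stages, and 33 of them formed 1 run of 338 bp (chr11:102606128-102606465) that reached from codon 466 over the end of the coding sequence into the 3′ UTR. This run averaged 17.5% ± 2.77 in FVB (SD, n = 12), and 53.0%, 61.5%, 69.6% and 72.1% in PyMT at weeks 6, 8, 10 and 12. The position with the greatest late difference, at chr11:102606205 in codon 492, had 83.0% of pooled reads methylated in PyMT and 11.5% in FVB, a difference of 71.5 points (q = 3.91e-45).

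Fzd1 (chr5:4753839-4758216, minus strand), a receptor of β-catenin signalling, was low in FVB and rose with age in PyMT. Its 3′ zone (91 positions) averaged 1.74% to 3.75% in FVB (median 2.52%). The PyMT samples had 5.36% and 4.06% at week 6, 5.72%, 5.88% and 8.09% at week 8, 8.95%, 8.29% and 7.76% at week 10, and 9.20% and 9.66% at week 12. No PyMT sample overlapped FVB, and the difference was 4.60 points (SE 0.292, limma adjusted p = 2.31e-09). The zone mean is held down by the many positions of the 5′ UTR and early coding sequence that stayed near 0. In the distal part, 9 positions between 1750 and 1999 bp after the TSS went from 9.50% in FVB (SD 4.25, n = 12) to 15.9% at week 6 and 48.6% at week 12. A run of 3 positions at codons 531 to 542 was already at 76.9% at week 6, against 37.6% in FVB, and was at 76.3% at week 12. These 3 positions, in 2 mice at week 6, were thus already near their week 12 level at hyperplasia, whereas the 9 positions nearer the start were not. No position of Fzd1 was covered beyond codon 542. The position with the greatest late difference (chr5:4756432, codon 383) rose to 69.4% from 17.6% in FVB (q = 5.9e-15) and was not a DMC at week 6 (difference 13.3 points, q = 0.0556). Over all weeks its lowest PyMT value was 17.4% and its highest FVB value 32.4%.

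Fzd7 (chr1:59482147-59486955, plus strand), a Wnt receptor of intestinal and other stem cells, went the other way. Its values are given for every sample because of the opposite direction seen in them. Its 3′ zone (91 positions) averaged 5.47% to 9.41% in FVB (median 6.82%). The PyMT samples had 2.68% and 2.04% at week 6, 3.01%, 2.89% and 2.23% at week 8, 2.79%, 3.08% and 2.39% at week 10, and 2.22% and 3.83% at week 12. All PyMT samples were below all FVB samples, with a difference of -4.43 points (SE 0.403, limma adjusted p = 1.26e-07). The loss was in place at hyperplasia (-3.86 points) and was -4.99 points at late carcinoma, and its change with stage did not pass (-1.29 points, SE 0.806, limma adjusted p = 0.598). Over 190 bp at codons 447 to 510, 6 positions were hypo-DMCs at all 4 stages. These 6 averaged 38.1% ± 7.86 in FVB (SD, n = 12), and 10.8%, 12.8%, 13.4% and 14.6% in PyMT at weeks 6, 8, 10 and 12. The 200 coding bases that hold them had 15 measured positions, of which 8 were hypo-DMCs at week 6 and 15 at week 12.

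The lined-up stretch put these opposite changes at the same CpGs. It was chosen after the values were seen, as the 200 coding bases of Fzd7 with the most hypo-DMCs, and was laid without gaps on the coding sequences of the other genes. Fzd1 and Fzd2 each matched it at 172 of 200 bases (86.0%), the other genes at 53.0% (Fzd4) to 71.5% (Fzd5). The longest run of identical bases was 38 with Fzd2 and 32 with Fzd1. Over this stretch the 15 measured positions of Fzd7 averaged 28.2% ± 6.47 in FVB (SD, n = 12) and 10.8% ± 2.11 in PyMT (SD, n = 10), and every PyMT sample (at most 14.3%) lay below every FVB sample. The 11 positions of Fzd2 averaged 13.7% in FVB (8.62% to 21.0%) and 59.8% in PyMT (29.9% to 74.9%). The 3 positions of Fzd1 averaged 37.6% in FVB (24.5% to 53.2%) and 78.8% in PyMT (66.0% to 87.7%). Fzd2 shared 7 measured CpGs with Fzd7 in the same column, and all 7 were hyper-DMCs in Fzd2 and hypo-DMCs in Fzd7 at late carcinoma. Fzd1 shared 3, and all 3 were likewise opposite. The Fzd7 side of these counts was set by the choice of the stretch. In Fzd2, all 14 positions from 1500 to 1749 bp and all 23 from 1750 to 1999 bp after the TSS were late hyper-DMCs. The counts are therefore descriptions and not a test of opposition at single CpGs. The CpG at base 108 of the stretch was at 9.78% in FVB and 75.3% in PyMT in Fzd2, at 41.2% and 77.3% in Fzd1, and at 32.3% and 9.12% in Fzd7. In Fzd5 3 of 5 shared CpGs were opposite. In Fzd3, Fzd6, Fzd9 and Fzd10 the shared CpGs (2, 1, 4 and 3) included no hyper-DMC, and those of Fzd4 and Fzd8 were not measured.

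**Figure D3:**
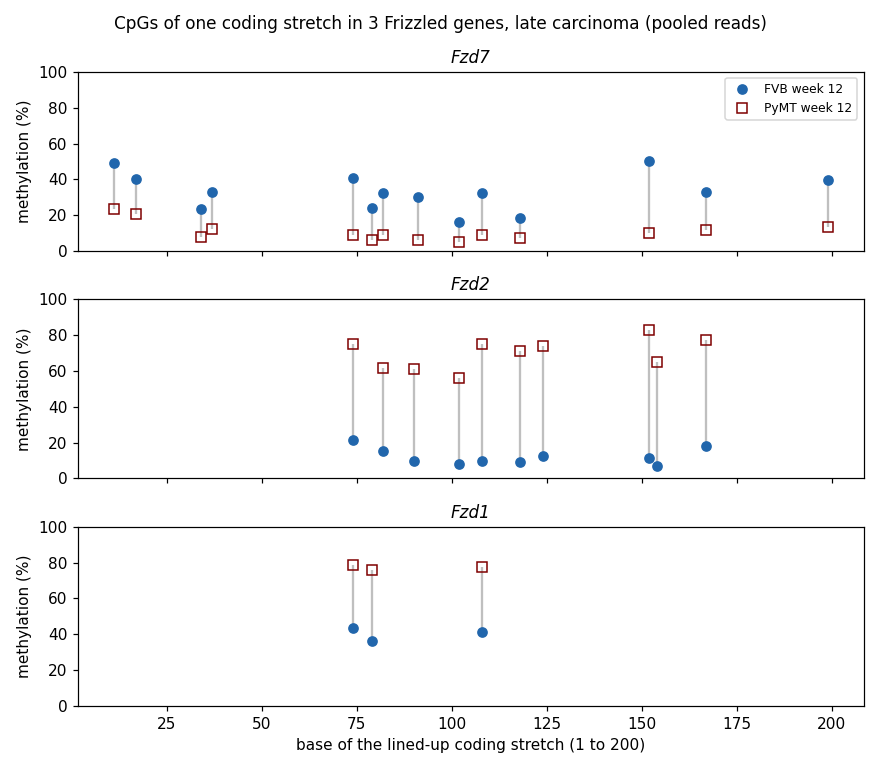
Methylation (%, pooled reads of week 12) of the measured CpGs in 1 coding stretch of 200 bases lined up between Fzd7, Fzd2 and Fzd1, with the base of the stretch on the horizontal axis. PyMT lies below FVB at every CpG of Fzd7 and above it at every CpG of Fzd2 and Fzd1.

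Fzd5 and Fzd8 form another pair of related receptors. Fzd5 (chr1:64730558-64737750, minus strand) carries its whole coding sequence in the second of 2 exons. Its 3′ zone (116 positions) averaged 13.0% to 16.2% in FVB (median 14.5%). The PyMT samples had 24.9% and 20.3% at week 6, 23.6%, 23.6% and 26.9% at week 8, 25.6%, 29.7% and 23.2% at week 10, and 27.2% and 26.6% at week 12. The groups did not overlap, and the difference was 10.5 points (SE 0.832, limma adjusted p = 2.69e-08). Fzd5 gained in 2 separate blocks. In the first, a run of 14 positions over 148 bp at codons 180 to 229, methylation went from 8.58% ± 2.20 in FVB (SD, n = 12) to 36.6% at week 6 and 48.4% at week 12. In the second, 6 positions at codons 523 to 565, it went from 37.7% to 60.7% and 65.2%. Late hyper-DMCs were more widespread, at 14 of 17 positions of codons 458 to 532 and at 7 of 8 of codons 536 to 565. Between the runs, 3 positions at codons 430 to 440 were already at 87.3% in FVB. They were at 86.6% at week 12, and none of them was called. No position was covered between codons 229 and 430, so that whether the gain is interrupted there is not known. The greatest late difference was at chr1:64735914 in codon 229, with 62.8% in PyMT and 8.45% in FVB (q = 1.75e-18).

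Fzd8, on chromosome 18, had 1 week 6 PyMT sample within the FVB range. Its 3′ zone (107 positions) averaged 6.78% to 9.49% in FVB (median 7.82%). PyMT replicate 1 of week 6 had 16.6% and replicate 2 had 7.97%. The later PyMT samples had 12.4%, 13.8% and 13.8% at week 8, 15.5%, 18.8% and 16.0% at week 10, and 18.8% and 17.9% at week 12, all above FVB. The difference was 7.29 points over the 4 weeks (SE 0.770, limma adjusted p = 6.97e-07), but at week 6 alone it was 5.07 points and missed the threshold (adjusted p = 0.0501). The gain lay at codons 573 to 670, where 13 positions from 2000 bp on went from 34.2% in FVB to 51.6% at week 6 and 71.3% at week 12. At the position of the greatest late difference, in codon 663, 77.6% of PyMT reads and 17.0% of FVB reads were methylated (q = 7.43e-16). Over all weeks the samples overlapped there, with a lowest PyMT value of 42.3% and a highest FVB value of 52.5%.

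Fzd4 (chr7:89404366-89410110, plus strand), the receptor of Norrin in retinal vessels as well as of Wnts, had the largest zone difference but on only 3 positions at codons 277 to 290, with a mean coverage of 45.0 reads. The zone averaged 10.1% to 71.1% in FVB (median 41.5%), and FVB week 8 replicate 2 was the lowest. The PyMT samples had 86.9% and 79.6% at week 6, 74.8%, 89.5% and 96.6% at week 8, 88.2%, 82.8% and 77.9% at week 10, and 91.9% and 90.3% at week 12. The groups did not overlap although FVB samples were widely spread (SD 17.9). The difference was 45.0 points (SE 5.98, limma adjusted p = 8.99e-06), and 41.5 points without FVB week 8 replicate 2. With a core of 200 bp, which moves positions near the start into the 3′ zone, it was 11.3 points, below the 29.2 points of Fzd2. All 3 positions were hyper-DMCs at every stage, and at chr7:89407616 the pooled level at week 12 was 90.5% in PyMT and 38.0% in FVB (q = 1.66e-16). At week 6 the zone difference, 29.4 points with an SE of 12.6, did not pass (adjusted p = 0.154).

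Fzd9 and Fzd10 are grouped with Fzd4 by sequence. Fzd9 (chr5:135248938-135251047, minus strand) was highly methylated in FVB and was lowest in PyMT at the first stage. Its 3′ zone (24 positions) averaged 63.4% to 72.2% in FVB (median 67.9%). The PyMT samples had 49.9% and 56.1% at week 6, 62.9%, 67.1% and 53.3% at week 8, 57.0%, 69.1% and 62.6% at week 10, and 62.1% and 68.5% at week 12. From week 8 on the groups overlapped, and week 6 was the only week at which every PyMT sample lay below all FVB samples. Later PyMT samples below all FVB samples had 62.9% and 53.3% at week 8, 57.0% and 62.6% at week 10 and 62.1% at week 12. The difference over the 4 weeks was -7.10 points (SE 1.76, limma adjusted p = 0.00334), of which -13.6 points were measured at week 6 and -4.62 points at week 12. Hypo-DMCs in Fzd9 numbered 11 at week 6, all between codons 420 and 504, and 4 at week 12. The change of the difference with stage did not pass, however (4.53 points, SE 3.52, adjusted p = 0.701). At chr5:135249591, 83.3% of FVB reads and 66.7% of PyMT reads were methylated at week 12 (q = 0.001). Over all weeks its highest PyMT value was 84.3% and its lowest FVB value 62.3%.

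Fzd10 (chr5:128601106-128604093, plus strand) and Fzd4 were the genes whose upstream zone could be tested, since the others had at most 2 upstream positions covered in all samples. The Fzd4 upstream zone did not pass (0.0130 points, limma adjusted p = 0.862). The Fzd10 upstream zone (37 positions, with the neighbouring transcript Fzd10os within 2 kb) lay at 0.353% to 0.972% in FVB and at 1.12% to 4.31% in PyMT, without overlap. The difference was 1.21 points (SE 0.218, limma adjusted p = 0.000213). Its core had 0.774% and 3.17% in the 2 late carcinoma samples against a mean of 0.689% in FVB of that age, a difference of 1.28 points (adjusted p = 0.0491 at late carcinoma), and only PyMT week 12 replicate 3 lay above the FVB samples, which reached 1.42%. In the Fzd10 3′ zone, 2 hyper-DMCs and 1 hypo-DMC lay between codons 396 and 435.

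Fzd3 and Fzd6, receptors of planar cell polarity, have introns and few DMCs. Fzd3 spans chr14:65192441-65262463 (minus strand) and Fzd6 chr15:39006280-39038192 (plus strand), each with 7 exons. The Fzd3 3′ zone (35 positions) averaged 33.2% to 35.3% in FVB and at most 33.3% in PyMT, and the groups overlapped. The difference was -2.46 points (SE 0.454, limma adjusted p = 0.00027) and its widest shift was at 2 intronic positions, chr14:65207294 and chr14:65207306, whose mean went from 76.3% in FVB to 45.6% at week 6 and 28.4% at week 12. With only positions of at least 20 reads in every sample, which leaves out both (lowest coverage 13), the difference was -0.151 points and no longer passed (adjusted p = 0.836). In Fzd6, 4 intronic positions from 500 bp after the TSS on averaged 23.4% in FVB, 6.98% at week 6 and 9.24% at week 12, and 3 of them were late hypo-DMCs. The Fzd6 positions at least 25 kb from the start, most of them coding, had means of 73.1% to 95.6% in FVB over bins of 250 bp, and of 79.2% to 94.2% at week 12.

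**Figure D4:**
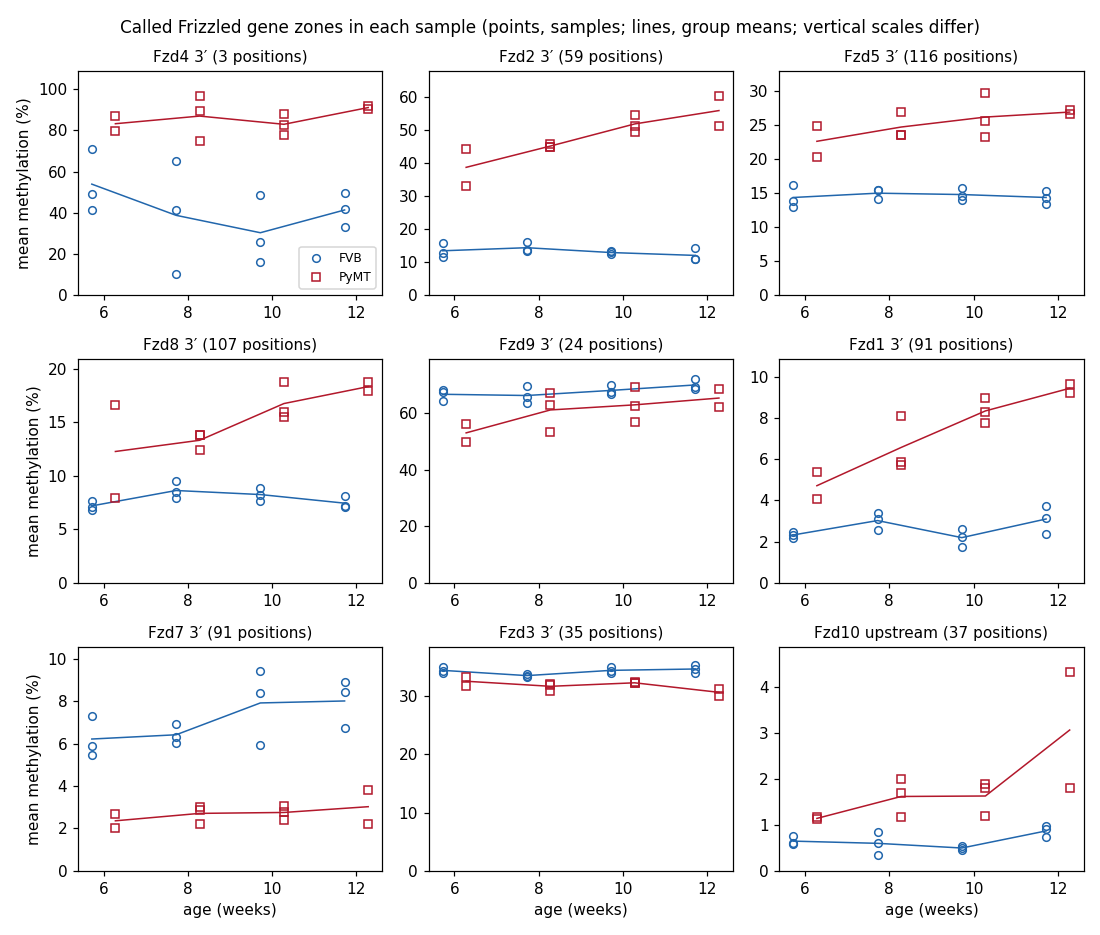
Mean methylation (%) of the 9 Frizzled zones that differed over the 4 weeks, in each FVB and PyMT sample by age in weeks, with lines through the group means. PyMT lies above FVB in Fzd4, Fzd2, Fzd5, Fzd8 and Fzd1 3′ and Fzd10 upstream, except for 1 week 6 sample of Fzd8 at 7.97%, and below FVB in Fzd7 3′.

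By stage, the fit called 3 Frizzled zones higher (Fzd1, Fzd2 and Fzd5 3′) and 2 lower (Fzd7 and Fzd9 3′) at hyperplasia, when 3.58% and 9.70% of all zones were. At adenoma/MIN 5 were higher and 1 lower (8.11% and 13.6% of all zones), and the same numbers held at early carcinoma (10.7% and 16.2%). At late carcinoma 7 were higher, the added ones being the upstream and core zones of Fzd10, and 2 were lower, Fzd7 3′ and Fzd3 3′ (11.2% and 15.4% of all zones). Whether the difference grew was tested as the difference at weeks 10 and 12 minus that at weeks 6 and 8. It grew in 2 zones, Fzd2 3′ by 13.3 points (SE 2.70, limma adjusted p = 0.0181) and Fzd1 3′ by 3.27 points (SE 0.583, adjusted p = 0.00788), when 1.42% of all zones grew and 0.351% went down. On a logit scale neither zone passed (adjusted p = 0.101 and 0.475). Fzd8 3′ moved by 4.82 points (adjusted p = 0.16) and Fzd5 3′ by 3.00 points (adjusted p = 0.526). In FVB no Frizzled zone changed between weeks 6 and 8 and weeks 10 and 12, and 0% of all zones did in limma. At an unadjusted p under 0.05 there were 2 of 22 Frizzled zones (Fzd7 3′, higher by 1.65 points, and Fzd4 upstream, at -0.158 points), against 6.43% of all zones.

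At 222 of the 1008 Frizzled CpGs both strands were covered in all samples, which gave a second reading of the same CpG. Where the pooled level of either group passed 5% at week 12 (48 CpGs), the median absolute difference in methylation between strands was 5.66 points. Of 34 CpGs with a late call on either strand 25 had the same call on both, and none had opposite calls.

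The other genes of the Wnt pathway are given by counts. Of 66 pathway genes, 64 had a testable zone. Of their 61 core zones 28 (45.9%) were higher in PyMT and 1 (1.64%) was lower, where 14.8% and 7.90% of the core zones of all genes were. Of their 58 3′ zones 8 (13.8%) were higher and 28 (48.3%) lower, where 17.9% and 39.7% of all 3′ zones were. Upstream, 6 of 15 zones (40.0%) were higher and 0 lower, where 15.7% and 21.3% of all upstream zones were. The lists below were small, and their counts stand against the same shares of all genes. No Frizzled core was called and 5 of 10 Frizzled 3′ zones were higher, and whether the family differs from the list was not tested. Among the Wnt ligands 12 of 16 core zones were higher and none lower, while 12 of 18 3′ zones were lower and 1 higher. Co-receptors had 1 of 6 cores higher, and of 6 3′ zones 5 were lower and 1 higher. The genes of Frizzled turnover (Znrf3, Rnf43, the R-spondins and their Lgr receptors) had 5 of 8 cores higher, and of 7 3′ zones 4 were lower and 1 higher. The secreted antagonists had 5 of 9 cores and 2 of 6 3′ zones higher, and none lower in any zone. Transducers between receptor and nucleus had 1 of 14 cores higher, and of 13 3′ zones 3 were higher and 4 lower. Planar polarity genes had 4 of 7 cores higher and 1 lower, and 3 of 7 3′ zones lower. Smo, the other receptor of the Frizzled class, had neither of its 2 zones called. The largest gains were in the core of Dkk3, of the Dickkopf family of Wnt antagonists (5.63% in FVB and 27.2% in PyMT, 21.8 points, SE 0.880), and the 3′ zone of Lgr6, an R-spondin receptor (15.1 points, SE 0.747). The largest losses were in the 3′ zones of Axin1, the scaffold of β-catenin breakdown (-40.9 points, SE 1.48), and Rspo4, an R-spondin (-23.9 points, SE 1.92). The limma adjusted p-values were 2.72e-11 for Dkk3, 1.82e-10 for Lgr6, 1.4e-11 for Axin1 and 2.96e-08 for Rspo4.

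Zones like Fzd4 3′ across the 22 samples were sought among other genes on other chromosomes only. Likeness was the root mean square distance after each zone's FVB mean was taken off. The zones most like it were the core of Mab21l1 (9.33 points), Epn3 3′ (11.2 points) and Mab21l1 3′ (11.4 points). Their PyMT minus FVB differences were 45.4, 44.3 and 48.1 points. For Fzd2 3′, added after the values were seen, the most like zones were 4930404N11Rik 3′ (2.86 points), Mfsd12 3′ (3.13 points) and the core of Iffo1 (3.16 points).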

How the data were processed

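Mammary tumours of PyMT mice and glands of FVB controls were profiled by ERRBS. The authors aligned reads with Bismark (version not given) to mm10, kept CpG positions with at least 10 reads and left out 2 outlying samples of the 24 they planned. They deposited the read count (coverage) of each position and the percent of reads methylated and unmethylated, with strands apart and no normalization. Methylated and unmethylated reads were recovered as coverage times percent. Zones came from curated RefSeq transcripts (GRCm38.p6, the mm10 build), and sequences from that genome.

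Single positions were tested on pooled reads by the likelihood ratio of a logistic model, with Benjamini-Hochberg q-values over 1140639 positions. This test does not see the spread between mice. Zone means were fitted with limma 3.58.1 (R 4.3.3) in 8 groups of strain and week, with Benjamini-Hochberg adjustment over 33023 zones and a threshold of 0.05. Both were also run on simulated data. For the position test these held no spread between mice. For the zone fit only zones well above the level of the Frizzled cores were changed. Values in every sample were given for the 6 called zones with the largest differences, and for Fzd7 3′, which was added after its values were seen. Single positions were those with the largest late difference. Over all weeks, PyMT and FVB samples overlapped at those of Fzd1, Fzd8 and Fzd9 and not at those of Fzd2, Fzd4 and Fzd5. Runs were at least 3 positions, at most 100 bp apart, that were DMCs of 1 direction at all 4 stages. Positions between them that were not called at every stage were left out of a run, and the week 6 levels of runs carry this choice. The members and gene lists were chosen with earlier results of these data known. Replicate numbers did not pair the samples. Coverage limits the precision of single positions, and replicates are separate mice. Python 3.11.15 with NumPy 2.4.6 and SciPy 1.17.1 was used. Alternatives were an overdispersion correction, a difference of at least 25 points, another coverage minimum, merged strands, read weights, a logit scale, other core widths, a replicate block and leaving out each sample. The result of 1 cell type marker list is not reported here.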

Additional observations from a re-analysis of the deposited data

Results flagged for a closer look

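The PyMT minus FVB difference was larger at weeks 10 and 12 than at weeks 6 and 8 in the 3′ zones of Fzd2, by 13.3 points, and Fzd1, by 3.27 points, by a limma test of the change itself (adjusted p = 0.0181 and 0.00788). Single groups held 2 or 3 samples, too few for a test of outlying samples.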

How the results depend on the processing

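The 9 zones that differed over the 4 weeks kept their direction under every one of the 30 alternatives that tested them, and 8 of them stayed past the threshold there too. The exception was Fzd3 3′, which did not pass with 20 reads (-0.151 points) or with read weights (-4.46 points), the first of which leaves out its 2 intronic positions. Fzd4 3′, with 3 positions, was not tested with a minimum of 10 positions. The width of the core moved the size of the 3′ differences, since it decides how many positions near the start are averaged in. With a core of 1000 bp the difference was 11.3 points in Fzd1, 13.2 in Fzd8, -10.2 in Fzd7 and -6.72 in Fzd3 3′, and 0.658 in Fzd10 upstream. With a core of 200 bp it was 11.3 points in Fzd4, -4.05 in Fzd9 and -0.887 in Fzd3 3′. With read weights it was 2.90 points in Fzd1 3′, and with merged strands -3.91 points in Fzd3 3′. Without each sample in turn, 6 to 7 zones were higher and 3 to 4 lower, 2 to 4 changed with stage and 0 changed with age in FVB. The 4 that changed without PyMT week 12 replicate 1 included the core (1.13 points) and upstream zone (1.53 points) of Fzd10. With a core of 1000 bp, 5 zones were lower, among them the cores of Fzd6 (-1.34 points), which then took in its intronic positions, and Fzd9 (-0.170 points), and the core of Fzd10 was higher (1.05 points). On the logit scale 0 zones changed with stage.

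With the overdispersion correction the DMC shares were 2.85% hyper and 0.813% hypo at hyperplasia, 0.813% hypo at adenoma/MIN, 1.06% hypo at early carcinoma and 1.46% hypo at late carcinoma. With differences of at least 25 points they were 4.39% hyper and 0.569% hypo at hyperplasia, 5.20% and 0.407% at adenoma/MIN, and 0.650% and 0.732% hypo at early and late carcinoma. Without each sample in turn, hyper-DMCs made up 3.74% to 8.46% at hyperplasia (lowest without PyMT week 6 replicate 1), and hypo-DMCs 1.54% to 2.60% at late carcinoma (lowest without PyMT week 12 replicate 1). In the other stages and directions the share stayed within 1.5 times its value. Under the alternatives, the share of all positions was recorded only for hyper-DMCs at hyperplasia with the overdispersion correction (0.883%). The other shares can therefore not be set against all positions.

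Same-numbered PyMT and FVB samples of a week did not deviate together over the zones (10 pairs, r from -0.10 to 0.07). With a replicate block, hyper-DMC shares were 7.32%, 9.27%, 11.1% and 11.7% and hypo-DMC shares 1.54%, 1.46%, 2.20% and 2.20% over the 4 stages, and 6 zones were higher, 3 lower, 2 changed with stage and 0 with age in FVB. Coverage limits single positions, down to 10 reads in some samples.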
